A study of Mus musculus with 8 samples.

Results

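The circadian clock was followed in 10 of its genes through 8 RNA-sequencing libraries of mouse myocardium. They were chosen by gene name and not by their values: Arntl, Clock, Per1, Per2, Per3, Cry1, Nr1d1, Nr1d2, Dbp and Tef. All 10 members were found among the 33249 genes of the table, and all 10 were among the 14028 genes tested, those with a mean FPKM (fragments scaled to the length of the gene and to the size of the library) of at least 0.5. The data set held 4 groups with 2 libraries each. The groups labelled fl/fl came from Piezo1 fl/fl littermates without a Cre transgene, which the labels call wild type, and those labelled CKO from Piezo1 Cko mice, which carry floxed Piezo1 and a tamoxifen-inducible Cre under the Myh6 promoter of cardiomyocytes. Tamoxifen was given at the age of 4 weeks to induce the deletion, and the operation at 8 weeks was either a sham operation or myocardial infarction (MI) by lasting closure of the left anterior descending artery. MI hearts were taken at day 42. Mice were kept under equal spans of light and dark, and the hour at which each heart was taken is given for no library.

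The circadian clock is a feedback loop of transcription that runs in nearly every cell. ARNTL (BMAL1) pairs with CLOCK or its relative NPAS2 and switches on Per, Cry, Nr1d and the PAR bZIP genes through E-box sequences. PER and CRY proteins then silence the pair, while NR1D1 and NR1D2 (REV-ERB) repress Arntl, Clock, Npas2 and Nfil3 through ROR elements. In the rodent heart Arntl and Npas2 are therefore high when Dbp, Nr1d1 and the Per genes are low, and low when these are high, so that the ratio within such an antiphase pair depends on the hour at which a heart is taken. Per1 is in addition an acutely induced gene that responds to glucocorticoid and to the signals that induce immediate early genes.

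Promoters were read for 9 of the 10 members in RefSeq (GRCm38.p6), from 250 bases before to 50 bases after each start, which gave 14 promoters. Shown are 5 of those that carry letters through which the clock is known to read its own genes. The promoter at the other start of Tef also holds an E-box and is not shown. Capitals mark the E-box CACGTG, the D-box TTATGNAA that DBP, TEF, HLF and NFIL3 can bind, and the core of the ROR element TAGGTCA. Both strands were searched, and none of these motifs overlapped another.
Arntl promoter, chr7:113207261-113207560, plus strand: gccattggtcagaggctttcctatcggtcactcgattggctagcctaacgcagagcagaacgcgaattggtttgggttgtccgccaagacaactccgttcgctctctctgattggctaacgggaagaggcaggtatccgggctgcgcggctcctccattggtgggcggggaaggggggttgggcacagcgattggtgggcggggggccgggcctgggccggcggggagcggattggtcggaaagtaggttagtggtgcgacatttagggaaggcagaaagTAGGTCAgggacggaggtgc
Cry1 promoter, chr10:85185005-85185304, minus strand: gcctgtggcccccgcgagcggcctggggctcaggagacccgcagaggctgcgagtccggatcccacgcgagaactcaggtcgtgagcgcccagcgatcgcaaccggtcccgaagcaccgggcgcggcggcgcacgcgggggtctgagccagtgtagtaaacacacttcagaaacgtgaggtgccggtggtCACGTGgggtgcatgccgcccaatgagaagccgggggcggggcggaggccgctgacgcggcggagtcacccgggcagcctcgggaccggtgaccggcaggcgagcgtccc
Per1 promoter, chr11:69098699-69098998, plus strand: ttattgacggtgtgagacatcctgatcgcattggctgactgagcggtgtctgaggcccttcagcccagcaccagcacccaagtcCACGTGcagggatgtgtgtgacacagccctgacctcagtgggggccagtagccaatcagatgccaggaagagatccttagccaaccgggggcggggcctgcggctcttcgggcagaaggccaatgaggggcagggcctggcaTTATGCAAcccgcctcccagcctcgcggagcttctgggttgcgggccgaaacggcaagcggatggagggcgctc
Per3 promoter, chr4:151044616-151044915, minus strand: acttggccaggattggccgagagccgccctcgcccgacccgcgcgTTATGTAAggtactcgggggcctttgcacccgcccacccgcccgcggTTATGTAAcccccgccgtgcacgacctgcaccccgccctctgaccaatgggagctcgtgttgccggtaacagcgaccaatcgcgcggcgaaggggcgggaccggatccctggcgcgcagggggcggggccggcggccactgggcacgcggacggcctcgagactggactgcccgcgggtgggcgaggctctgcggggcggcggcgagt
Tef promoter, chr15:81802423-81802722, plus strand: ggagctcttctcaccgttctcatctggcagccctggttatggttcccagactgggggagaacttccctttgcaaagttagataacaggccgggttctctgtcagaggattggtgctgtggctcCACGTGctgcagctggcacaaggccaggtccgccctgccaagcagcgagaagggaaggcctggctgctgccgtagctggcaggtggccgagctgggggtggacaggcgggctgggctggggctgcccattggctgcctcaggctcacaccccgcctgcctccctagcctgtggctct

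An E-box stood in promoters of 3 members, 60 bases before the start of Cry1, 166 bases before that of Per1, and 127 and 138 bases before the 2 starts of Tef. Among all 32851 promoters of this length 7.15% held an E-box. The D-box was found in 2 members, 24 bases before the start of Per1 and 158 and 205 bases before that of Per3, and 3.38% of all promoters held it. The ROR core lay 31 bases after a start of Arntl and in no other member, against 2.61% of all promoters. The cAMP response element TGACGTCA was in 1.79% of all promoters and in none of the members. A member was counted for a match in any of its promoters, while the shares are of single promoters, so counts and shares differ in unit. These matches describe the letters of a short window and not sites of binding.

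Levels were compared between genes as mean FPKM over the 8 libraries, which accounts for gene length. The REV-ERB genes Nr1d1 (27.0) and Nr1d2 (25.2) were the most abundant members, followed by Dbp (18.8), Per1 (17.9) and Tef (17.5). Per2 (6.29), Per3 (3.65), Clock (3.59) and Cry1 (2.89) were lower, and Arntl was lowest at 1.44. Even so, the fewest read pairs behind one Arntl value were 118. Values of single genes are given from here on as CPM (counts scaled to one common library size by the trimmed mean of M-values, TMM). Between the highest and the lowest library the members differed by a median of 3.23-fold, against 2.10-fold for all genes tested. The second CKO-MI library held the highest or the lowest value of 8 members. Without it Per2 ran from 34.5 to 49.5 CPM and Tef from 130 to 176. Per1 still ran from 53.6 to 317 without it, and the ranges of Cry1 and Nr1d1 did not change.

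The counts per library summed to between 73821747 and 88117573, which at 4 counts for each read pair stands for 18455437 to 22029393 pairs. The share of mitochondrial genes in the counts was 43.1% to 46.4% in sham and 19.9% to 24.2% in MI libraries. Piezo1 itself lay at 72.2 and 82.0 CPM in fl/fl-Sham, 76.7 and 88.3 in CKO-Sham, 53.5 and 64.8 in fl/fl-MI and 56.3 and 64.6 in CKO-MI, so the genotype labels were not visible in whole-tissue counts of the targeted gene, in which other cell types than cardiomyocytes are also counted. Of the MI libraries 2 stood apart. The second fl/fl-MI library held the atrial genes Bmp10, Myl4 and Sln at 3830, 2810 and 310 CPM, with at most 18.8, 48.0 and 4.62 elsewhere, and the second CKO-MI library stood apart in the clock genes themselves. In such bulk tissue fewer cells of a type and less RNA per cell cannot be told apart.

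The activators of the loop were read first. Arntl, the partner of CLOCK, lay at 11.6 and 13.7 CPM in fl/fl-Sham, 8.98 and 7.78 in CKO-Sham, 5.08 and 6.38 in fl/fl-MI, and 5.74 and 26.6 in CKO-MI. The second CKO-MI library was the highest of all, 4.63-fold above the first one (95% interval from counting error only 3.79 to 5.64), and the other 3 MI libraries were below every sham library. Clock was nearly flat, at 39.1 to 51.7 CPM in 7 libraries, and reached 74.7 in the second CKO-MI library. Both activators were thus highest in one and the same library.

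The repressors of the PER family showed the opposite picture in that library. Per2 lay at 37.4 and 43.8 CPM in fl/fl-Sham, 47.1 and 49.5 in CKO-Sham, 34.5 and 44.3 in fl/fl-MI, and 44.4 and 9.86 in CKO-MI. Per3 lay at 39.2 and 37.3 in fl/fl-Sham, 47.0 and 41.8 in CKO-Sham, 39.2 and 39.4 in fl/fl-MI, and 35.8 and 13.8 in CKO-MI. In both genes 7 libraries were close to each other, and the second CKO-MI library was more than 2-fold below every one of them.

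Per1 varied most among the members, 9.80-fold. Its values were 53.6 in both fl/fl-Sham libraries, 75.6 and 85.1 in CKO-Sham, 86.2 and 317 in fl/fl-MI, and 92.1 and 32.3 in CKO-MI. The second CKO-MI library was again the lowest, but the highest was the second fl/fl-MI library, and the sham groups did not overlap. Cry1, a repressor whose rhythm runs later than that of the Per genes, ranged only from 7.19 CPM in a CKO-Sham to 14.7 in a CKO-MI library, with overlap between all groups.

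The REV-ERB receptors did not move alike. Nr1d1 lay at 88.0 and 84.1 CPM in fl/fl-Sham, 94.3 and 96.8 in CKO-Sham, 100 and 97.8 in fl/fl-MI, and 58.2 and 61.3 in CKO-MI. Both CKO-MI libraries were below the other 6 and close to each other, so that for Nr1d1 the low level in CKO-MI was shared by its 2 libraries. Nr1d2 lay at 141 and 126 in fl/fl-Sham, 201 and 169 in CKO-Sham, 158 and 132 in fl/fl-MI, and 141 and 66.0 in CKO-MI, where the second library was the lowest.

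Dbp and Tef are PAR bZIP factors that carry the rhythm to output genes. Dbp lay at 43.6 and 49.2 CPM in fl/fl-Sham, 91.7 and 71.3 in CKO-Sham, 73.8 and 70.8 in fl/fl-MI, and 49.0 and 17.8 in CKO-MI. The CKO-MI libraries were below those of CKO-Sham and fl/fl-MI, and the second was below all other libraries. Tef lay at 149 and 143 in fl/fl-Sham, 176 and 174 in CKO-Sham, 149 and 130 in fl/fl-MI, and 156 and 70.4 in CKO-MI. Here the first CKO-MI library lay among the others and the second below all of them.

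**Figure D1:**
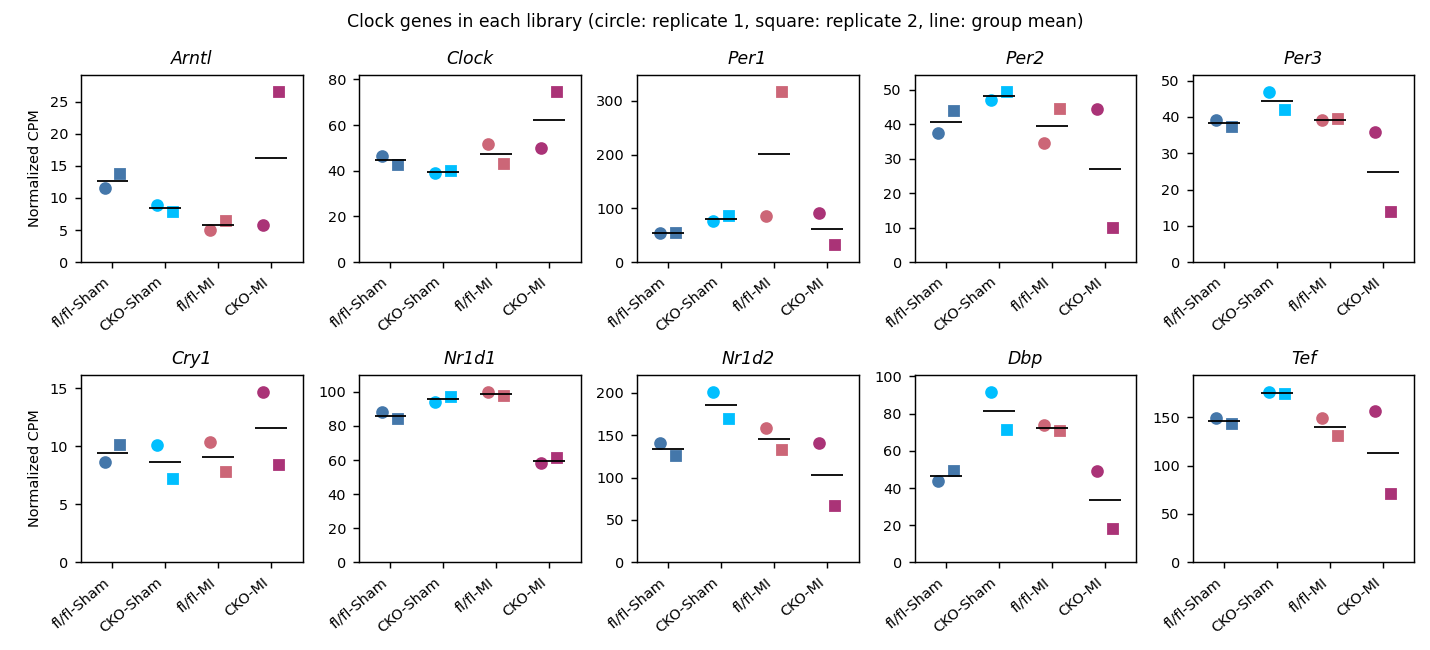
Normalized CPM of the 10 clock genes (vertical axes, each from 0) in the 4 groups (horizontal axes), with circles for replicate 1, squares for replicate 2 and a line at the group mean. In CKO-MI the square stands far from the circle for most genes, at 26.6 against 5.74 CPM for Arntl and 9.86 against 44.4 for Per2, while for Nr1d1 both points are low.

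The second CKO-MI library lay outside the range of the other 7 for 8 of the 10 members, against 22.5% of all genes. Arntl and Clock were above that range, and Per1, Per2, Per3, Nr1d2, Dbp and Tef were below it. For 3 members, Per2, Per3 and Dbp, it was outside by at least 2-fold, which held for 0.642% of all genes. Of 18 further clock genes tested 5 were outside the range in this library, Npas2 above and Ciart, Hlf, Usp2 and Csnk1e below, which is near the share of all genes. By at least 2-fold it was 2 of them, Npas2 at 9.43 CPM against at most 3.83 elsewhere and Hlf, the third PAR bZIP factor, at 5.74 against at least 17.0. The second fl/fl-MI library was outside the range for 1 member, Per1, against 39.4% of all genes, and Per1 was more than 2-fold outside, against 3.72% of all genes. The repressors Ciart (30.4 against at most 7.62 CPM) and Cry2 (74.6 against at most 36.6) were also more than 2-fold above the rest in that library.

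The same can be read from replicates of one group. In CKO-MI the libraries differed by more than 2-fold in 7 of the 10 members, Arntl, Per1, Per2, Per3, Nr1d2, Dbp and Tef, with a median of 2.41-fold over the members. Over all genes the median in this group was 1.18-fold, and 6.39% of genes differed by more than 2-fold. In fl/fl-MI 1 member, Per1, differed by that much, against 16.9% of genes. No member did so in fl/fl-Sham or CKO-Sham, where 3.29% and 3.71% of genes did and the median over the members was 1.11-fold and 1.12-fold.

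**Figure D2:**
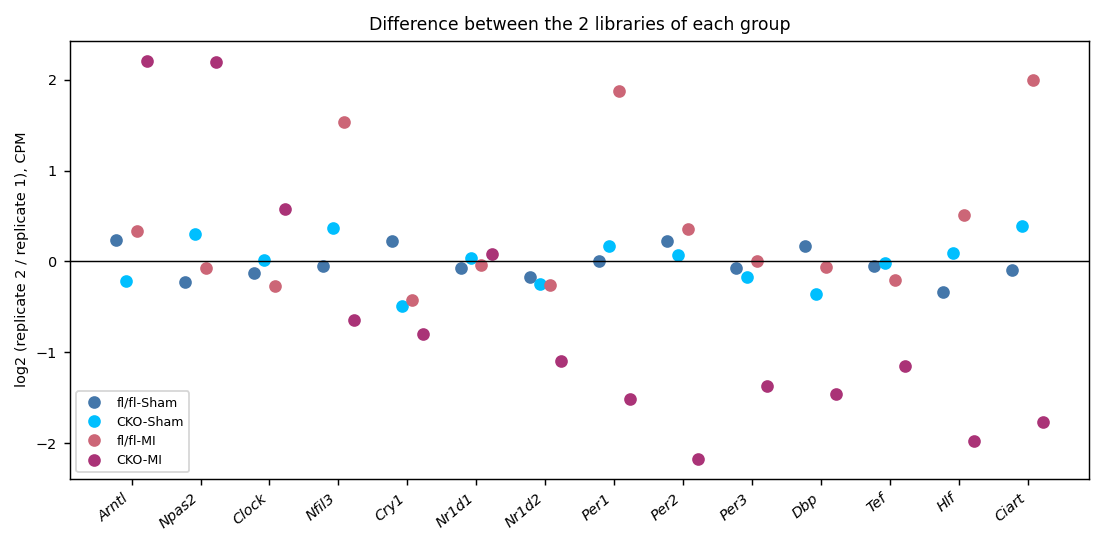
Log2 of the CPM of replicate 2 over that of replicate 1 (vertical axis) for the 10 members and 4 further clock genes (horizontal axis), with a colour for each group. The CKO-MI points run from 2.21 for Arntl and 2.19 for Npas2 to -2.17 for Per2, and points of the sham groups stay between -0.49 and 0.39.

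The antiphase pairs set these values against each other within a library, which removes the scaling between libraries. For this, 14 pairs of members were formed, Arntl or Clock against each of Dbp, Nr1d1, Nr1d2, Per1, Per2, Per3 and Tef, and the log2 ratio of their FPKM was taken. For all 14 pairs the ratio was highest in the second CKO-MI library. Log2 Arntl to Per2 was 1.07 there and lay between -3.32 and -2.04 in the other 7 libraries. Log2 Arntl to Dbp was -0.75 there and between -5.19 and -3.18 elsewhere. In both pairs the distance from the other libraries, 3.11 and 2.43, was greater than the whole range of the other 7 (1.28 and 2.02). It was smaller than that range for Arntl to Nr1d1 (1.41 against 1.69) and Arntl to Per1 (1.69 against 3.66). The same held for Clock to Nr1d1 (0.51 against 1.06) and Clock to Per1 (1.41 against 2.69). In the remaining pairs of members the distance was the greater. The pair of Arntl and Nr1d1 showed the smallest gap of those with Arntl, from -3.91 as the highest of the others to -2.50.

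The sham groups also differed in these ratios, in a narrower range. For all 14 pairs both fl/fl-Sham libraries lay above both CKO-Sham libraries. Log2 Arntl to Dbp was -3.24 and -3.18 in fl/fl-Sham and -4.68 and -4.53 in CKO-Sham, and log2 Arntl to Per1 was -2.63 and -2.39 against -3.49 and -3.87. In the 3 remaining MI libraries log2 Arntl to Dbp was -5.19 and -4.80 (fl/fl-MI) and -4.43 (the first CKO-MI library), all below fl/fl-Sham. With Npas2, Nfil3 and Ciart included there were 32 pairs, of which 28 were highest in the second CKO-MI library and 25 higher in fl/fl-Sham than in CKO-Sham. The exceptions in the second CKO-MI library were 4 of the 8 pairs with Nfil3, which had its highest level in the second fl/fl-MI library (26.5 CPM). The 7 exceptions in the sham groups were all pairs with Npas2, which went against Arntl there, at 2.61 and 2.23 CPM in fl/fl-Sham and 3.12 and 3.83 in CKO-Sham. Pairs share their genes and are not independent of each other, so no test was made over them. For each of the 14 pairs of members the step between the libraries of CKO-MI, 0.51 to 4.39, was larger than the differences of CKO-Sham and of fl/fl-MI from fl/fl-Sham. In the 7 pairs with Arntl the mean of fl/fl-MI lay further from fl/fl-Sham (-2.77 to -1.08) than that of CKO-Sham did (-1.40 to -0.75), and in the 7 pairs with Clock this held for Per1 alone. Whether the hearts were taken at different hours was not tested, since the hour is not given, and in the sham groups an effect of genotype and one of the hour cannot be told apart.

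**Figure D3:**
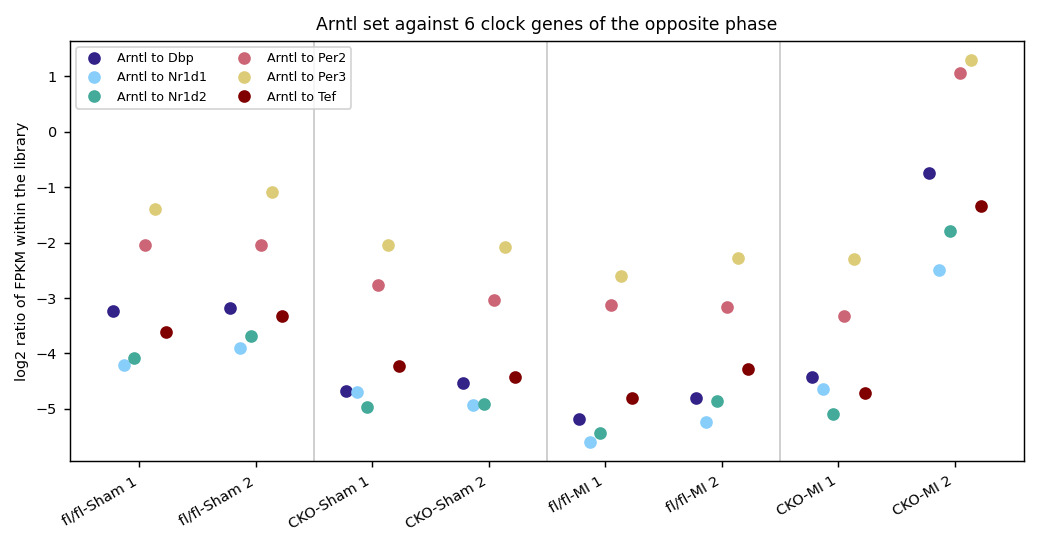
Log2 ratio of the FPKM of Arntl to that of 6 clock genes of opposite phase (vertical axis) in each of the 8 libraries (horizontal axis), with vertical lines between groups. All 6 ratios are highest in the second CKO-MI library, where Arntl to Per2 reaches 1.07, and next highest in both fl/fl-Sham libraries.

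Other gene groups were read in the same library. The summed CPM of cardiomyocyte markers (13400), fibroblast markers (4510), endothelial markers (509), macrophage markers (199) and erythroid markers (279) in the second CKO-MI library lay within the ranges of the other 3 MI libraries. Of the fibroblast markers Col1a1 (754 against at most 682) and Pdgfra (117 against at most 99.7) were above those libraries, and Col3a1, Dcn and Postn within their range. The sums of smooth muscle markers (152, against 158 to 249) and atrial markers (2550, against 4430 to 19900) were below the other MI libraries. So was the neutrophil list of 2 genes, at 0.474 against at least 0.746. Nppa held 2520 of the atrial sum. Myl4 (10.2) and Myl7 (3.9) were also below the other MI libraries, while Bmp10 (11.2) and Sln (1.4) lay within their range. Of the smooth muscle markers Acta2 (73.6) was below, and Tagln (28.6) and Myh11 (49.5) lay within the range. The 3 lymphocyte markers were too low to be tested. Immediate early genes summed to 104 CPM there, against 423 to 2040 in the other MI libraries and 78.7 to 165 in sham libraries. Glucocorticoid-induced genes summed to 665, against 1280 to 2800 in the other MI and 723 to 829 in sham libraries. Temperature-responsive genes summed to 1020, of which Hspa8 held 849, against 1320 to 2150 and 967 to 1130. Sgk1, a kinase of the glucocorticoid list, was at 44.7 against at least 99.8 elsewhere. Tsc22d3, Zbtb16, Klf9, Errfi1, Pdk4 and Mt1 of that list were also below the other MI libraries. Fkbp5 (70.9), Cdkn1a (82.1) and Mt2 (19.0) lay within the range of those libraries. In the second fl/fl-MI library, in which Per1 was highest, the immediate early list was highest as well (2040), with Fos at 423 CPM against at most 82.2 and Nr4a1 at 581 against at most 155, and so was the glucocorticoid list (2800). That sum held Pdk4 at 1200 CPM and Errfi1 at 463, against at most 633 and 101 elsewhere, while Fkbp5 of the same list was at 53.9, below the other MI libraries (67.9 to 110), and Tsc22d3 at 118 against 229 and 149 in both first MI libraries. The part of these genes and of the atrial genes in the values of the clock genes was not tested.

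The first comparison asked what Piezo1 deletion in cardiomyocytes was accompanied by after MI. In CKO-MI against fl/fl-MI 0 of the 10 members passed edgeR's quasi-likelihood test at an adjusted p under 0.05, and 0.0% of all genes did. At an unadjusted p under 0.05 there were 4 members, against 8.31% of all genes. These were Arntl, with a log2 difference of 1.50 ± 0.61 (SE), and Per1 (-1.70 ± 0.65), Nr1d1 (-0.73 ± 0.12) and Dbp (-1.12 ± 0.42). The adjusted p of edgeR was 0.454 for Nr1d1, which ranked 12 among all genes by its p, and between that and 0.847 for the other members. The members had a median of -0.52 and all genes one of -0.01. Groups did not overlap for 3 members, Per3, Nr1d1 and Dbp, against 30.0% of all genes.

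Nr1d1 averaged 59.7 ± 2.21 CPM (SD, n = 2) in CKO-MI and 99.1 ± 1.75 in fl/fl-MI, and DESeq2, with another estimate of the spread, gave it an adjusted p of 3.71e-05 and called 1.48% of all genes. Arntl averaged 16.2 ± 14.7 in CKO-MI and 5.73 ± 0.921 in fl/fl-MI, so its difference was smaller than the SD within CKO-MI. Without the second CKO-MI library the log2 difference of Arntl was 0.04 and that of Per2 was 0.21 in place of -0.54, while Nr1d1 kept -0.73. Without the second fl/fl-MI library that of Per1 was -0.47.

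After sham operation most members lay apart by genotype in their CPM, with Per, Nr1d, Dbp and Tef above and Arntl and Clock below fl/fl-Sham in CKO-Sham, but no member passed the test. Of the 10 members 0 passed in CKO-Sham against fl/fl-Sham, while 0.00713% of all genes (1 gene) passed, and at an unadjusted p under 0.05 also 0 members did, against 3.89% of all genes. The groups did not overlap for 9 of the 10 members, all but Cry1, against 47.0% of all genes. Dbp averaged 81.5 ± 14.4 CPM in CKO-Sham and 46.4 ± 3.93 in fl/fl-Sham (log2 difference 0.81 ± 0.42, interval from the SE of the fit -0.02 to 1.64). Per1 was at 0.58 ± 0.64 and Arntl at -0.60 ± 0.60, and the adjusted p was 1 for each member. The one fit for 8 libraries takes its spread also from the MI hearts. With the 4 sham libraries alone, Dbp (adjusted p = 0.0415 by edgeR) and Per1 (0.0386) passed the test, with the same differences, and so did 1.18% of all genes.

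MI was then compared with sham operation within each genotype. In fl/fl-MI against fl/fl-Sham 0 of the 10 members passed, against 18.5% of all genes, and 1 member was at an unadjusted p under 0.05, against 36.3%. This was Per1, at a log2 difference of 1.91 ± 0.66 (adjusted p = 0.0836 by edgeR), which was 0.69 without the second fl/fl-MI library and which DESeq2 called at an adjusted p of 0.00702, as it did 28.8% of all genes. Arntl was at -1.14 ± 0.61 and Dbp at 0.64 ± 0.41. Without the first or the second CKO-MI library in the fit, which are not compared here but enter the estimate of the spread, Arntl passed at -1.18 (adjusted p = 0.0226 and 0.0267 by edgeR), as did 14.7% and 14.6% of all genes. Groups did not overlap for 5 members, against 61.9% of all genes.

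In CKO-MI against CKO-Sham 1 of the 10 members passed, against 24.7% of all genes. This was Nr1d1, which fell by 0.68 on the log2 scale (SE 0.12, adjusted p = 0.0114 by edgeR) from 95.6 ± 1.73 to 59.7 ± 2.21 CPM. At an unadjusted p under 0.05 there were 4 members, against 39.9% of all genes: Nr1d1, Nr1d2 (-0.84 ± 0.33), Dbp (-1.29 ± 0.42) and Clock (0.66 ± 0.21). Groups did not overlap for 7 members, against 72.2% of all genes. The call of Nr1d1 was lost without the first CKO-Sham library, the second or the first CKO-MI library, with differences of -0.66 to -0.70. It was kept without the second CKO-MI library. Each of these fits leaves 1 library in a group, and the share of all genes called fell in each of them. On log2(FPKM + 1), on which the median of all genes was 0.39, Nr1d1 was at -0.11. GENCODE M21 places 1075 bases of Nr1d1 opposite Thra, whose CPM was 59.8 to 61.9 in CKO-Sham and 47.1 to 65.1 in CKO-MI, and strand use in the counting is not given in the sources used here.

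When the first CKO-MI library was left out, so that the second stood alone for its group, 7 members passed in CKO-MI against CKO-Sham, against 8.74% of all genes. Arntl (1.64 ± 0.24) and Clock (0.90 ± 0.18) were then higher and Per2 (-2.32 ± 0.24), Per3 (-1.71 ± 0.17), Nr1d2 (-1.51 ± 0.22), Dbp (-2.22 ± 0.23) and Tef (-1.34 ± 0.18) lower, with adjusted p of 0.0224 to 0.0395 by edgeR. This fit takes the lone library to vary like the other groups. Without the second CKO-MI library Arntl was at -0.54.

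**Figure D4:**
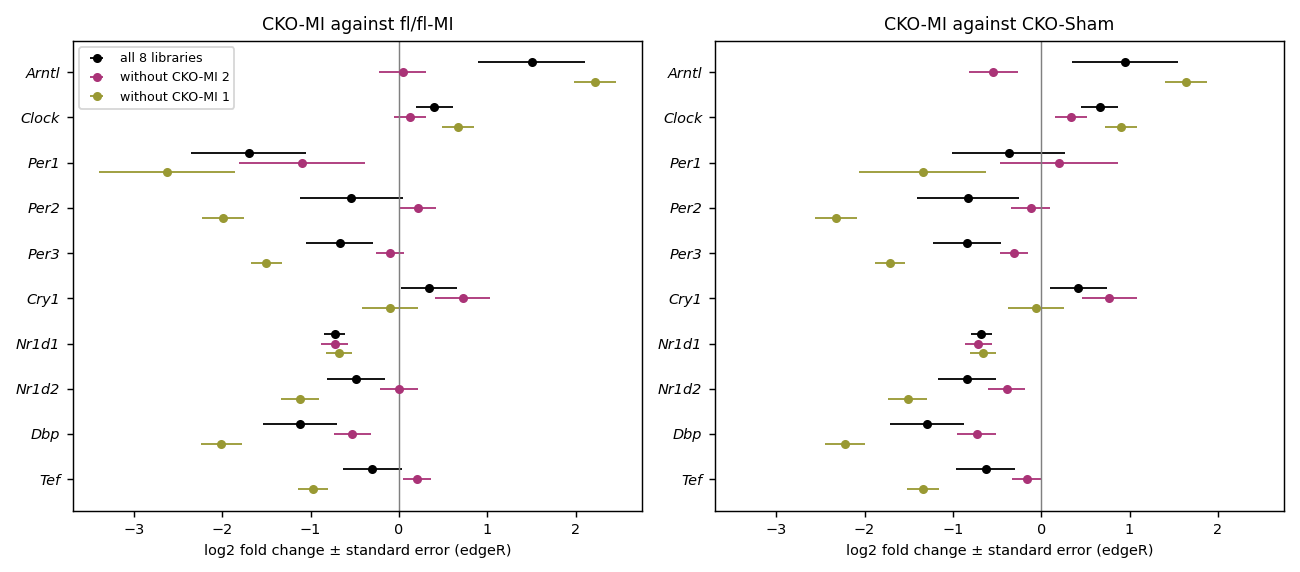
Log2 fold change ± standard error from edgeR (horizontal axes) of the 10 clock genes (vertical axes) in CKO-MI against fl/fl-MI (left) and against CKO-Sham (right), with all libraries and without either CKO-MI library. For Arntl against fl/fl-MI the value runs from 0.04 without the second library to 2.22 without the first, while for Nr1d1 the points of the 3 fits lie together near -0.7.

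Averaged over genotypes, MI against sham gave 0 of the 10 members, against 40.4% of all genes, and 2 at an unadjusted p under 0.05, Nr1d1 and Clock, against 50.2%. For the interaction of genotype and MI it was 0 members, against 0.0% of all genes, and 4 members at an unadjusted p under 0.05, against 8.49%. The latter were Arntl (2.09 ± 0.85), Per1 (-2.28 ± 0.91), Nr1d1 (-0.88 ± 0.17) and Dbp (-1.93 ± 0.59), with adjusted p of 0.56 to 0.577 by edgeR. These comparisons share libraries, and an exact permutation test of 2 against 2 libraries can give no two-sided p below 0.333.

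Of 20 further genes of the clock, 18 were tested. In fl/fl-MI against fl/fl-Sham 9 of them passed, where 18.5% of all genes did. Bhlhe40 (DEC1), a repressor that competes for E-boxes, rose by a log2 value of 2.19 ± 0.30, Bhlhe41 (DEC2) by 1.68 ± 0.30, the ROR receptor Rora by 1.24 ± 0.19 and the repressor Ciart by 2.73 ± 0.77. The kinases Csnk1a1, Csnk1d and Gsk3b and the ubiquitin ligase subunit Fbxw11 rose as well, and Arntl2, a relative of Arntl, fell by 1.73 ± 0.30 on the log2 scale. In CKO-MI against CKO-Sham 6 passed, where 24.7% of all genes did, all higher after MI: Bhlhe40 (1.10 ± 0.29), Bhlhe41 (1.17 ± 0.29), Rora (0.76 ± 0.19), Csnk1a1, Gsk3b and Fbxw11. Averaged over genotypes, where 40.4% of all genes passed, 8 were higher and Arntl2 lower, with Nfil3 (1.24 ± 0.34) among the former. None passed between the genotypes after MI, after sham operation or in the interaction.

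Transcript values, given by the authors as FPKM, located some of these differences. In the second fl/fl-MI library the shorter coding Per1 transcript ENSMUST00000101004 was at 29.3 FPKM, against at most 6.18 elsewhere, and ENSMUST00000142392, annotated as a target of nonsense-mediated decay, at 8.66 against at most 0.183. The main transcript ENSMUST00000021271 was at 45.8 there and at 7.77 to 18.5 elsewhere. The Clock transcript ENSMUST00000075159 was at 0.753 to 2.33 FPKM in MI and at most 0.00673 in sham libraries, while ENSMUST00000202651 with the same coding length of 2565 bases was at 4.10 to 8.33 and 3.14 to 3.68. Such splits between transcripts are estimates from shared reads, and FPKM of most genes was higher in MI libraries. Per3 lies wholly within the interval of Camta1 on the same strand, and Camta1 was at 41.7 to 45.6 CPM in sham and 55.2 to 124 in MI libraries.

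The genes most like Arntl over the 8 libraries, by Pearson's r of log2 CPM, were Arsi (0.93), Adipor2, Clip2, Lrg1 and Alyref2, and those least like it were Apold1 (-0.93), Tsc22d3, Rgs1, Tmem17 and Arc. Among clock genes r was 0.78 for Npas2, -0.80 for Dbp and -0.88 for Hlf. These values rested on the second CKO-MI library: over the other 7 they were 0.29, -0.41 and -0.64, and that of Per2 went from -0.74 to 0.17. For Clock r was 0.54 over the 8 libraries and -0.49 without the second CKO-MI library. Apold1, at 10.2 CPM in that library and 19.7 to 154 elsewhere, kept -0.89, and Arsi 0.81.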

How the data were processed

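Poly(A) RNA of 8 myocardium libraries was sequenced by the authors as paired-end reads. Per the submitters' processing notes reads were treated with cutadapt 1.9 and FastQC, and the aligner, counter and genome build are not given in the sources used here. The authors deposited a whole-number count per gene and library without normalization, which stands for about 4 counts per read pair, and FPKM values per gene and transcript, scaled by them to length and library size. Gene intervals overlapped those of RefSeq on GRCm38.p6 for 99.9% of 26256 shared symbols, and coordinates are given on that build.

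Counts of the 14028 genes whose FPKM averaged 0.5 or more were compared with edgeR 4.0.16 in R 4.3.3 (TMM, quasi-likelihood test, all 8 libraries in one fit with a mean per group). A standard error is the size of the log2 fold change over the root of F, and p-values were adjusted after Benjamini and Hochberg over all genes tested. The 10 genes and all lists (clock genes by role, clock outputs, glucocorticoid-induced, temperature-responsive and immediate early genes, and markers of cardiomyocytes, atria, fibroblasts, endothelium, macrophages, smooth muscle, lymphocytes, neutrophils and erythroid cells) were chosen with earlier results of these data known. All members were named, together with the clock genes that passed a test and the 5 genes most and least like Arntl. Bmp10, Myl4, Sln, Sgk1, Fos, Nr4a1, Errfi1, Pdk4, Fkbp5, Tsc22d3, Cdkn1a, Mt1, Mt2, Zbtb16, Klf9 and Hspa8 were picked from the lists with values known. So were Nppa, Myl7, Acta2, Tagln, Myh11, Col1a1, Pdgfra, Col3a1, Dcn and Postn. The transcripts and the further clock genes that passed no test were also picked after their values were seen. The values of 1 gene of the clock output list are not reported here.

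Samples were grouped by their labels. Nothing says that the libraries of a group came from separate animals or whether hearts were pooled, so p-values measure the spread between these libraries only. The interval of the Arntl ratio between the CKO-MI libraries covers counting error only. That of Dbp after sham operation is built from the standard error of the edgeR fit and takes in the spread between libraries. Alternatives were DESeq2 1.42.0, limma 3.58.1 on log2(FPKM + 1) and log2(FPKM + 0.1), RLE normalization, no filter, an average FPKM of 5 or more, counts divided by 4, the compared libraries alone, a replicate block, and each library left out. Leaving out both second MI libraries and a crossed block were chosen after seeing the data. The tests were tried on simulated data. Other steps used Python 3.11.15 (pandas 2.3.3, SciPy 1.17.1).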

Additional observations from a re-analysis of the deposited data

Results flagged for a closer look

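Within the 4 MI libraries, 3 values of the second CKO-MI library stood far from the other 3 libraries: Arntl at 26.6 CPM, Per2 at 9.86 and Per3 at 13.8. On the log2 scale the gap to the nearest library took 0.862, 0.831 and 0.908 of the whole range, above the critical value of Dixon's test for 4 samples. There were 20 such groups of 4 libraries examined, and chance flags about 1 in 20.

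For 3 members, both fl/fl-MI libraries lay above the mean of fl/fl-Sham and both CKO-MI libraries below the mean of CKO-Sham. The interaction of genotype and MI was -0.88 on the log2 scale for Per3 (edgeR adjusted p = 0.686), -0.88 for Nr1d1 (0.56) and -1.93 for Dbp (0.574). For 7 members both CKO-MI libraries lay on one side of the mean of fl/fl-MI and both CKO-Sham libraries on the other side of the mean of fl/fl-Sham. How many of all genes meet these rules was not counted. For Arntl, Clock, Per1 and Nr1d2 the first CKO-MI library lay between those of fl/fl-MI, for Arntl at 5.74 CPM between 5.08 and 6.38. Without the second CKO-MI library the log2 difference of Arntl in CKO-MI against fl/fl-MI was 0.04. The interaction was 2.09 for Arntl (edgeR adjusted p = 0.577), 0.57 for Clock (0.624), -2.28 for Per1 (0.574) and -0.96 for Nr1d2 (0.612), beside the values of Per3, Nr1d1 and Dbp. None of these interactions passed the test with all libraries. Without both second MI libraries, left out after seeing the data, Nr1d1 (-0.89, edgeR adjusted p = 0.0182) and Dbp (-1.36, 0.0207) passed it.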

How the results depend on the processing

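The number of members called depended on the fit. At an unadjusted p under 0.05 it was 4 in CKO-MI against fl/fl-MI (0 by adjusted p), 1 in fl/fl-MI against fl/fl-Sham (0), 4 in CKO-MI against CKO-Sham (1), 2 in MI against sham averaged over genotypes (0) and 4 in the interaction (0). DESeq2 called 1, 1, 4, 1 and 1 of them in the same order, against 1.48%, 28.8%, 33.7%, 46.2% and 0.934% of all genes. Without a filter on low values 1 was called in fl/fl-MI against fl/fl-Sham (8.00% of all genes), 3 in CKO-MI against CKO-Sham (9.53%), and with a mean FPKM of at least 5 it was 2 in CKO-MI against CKO-Sham (38.1%) and 1 in the average (52.6%). With the sham libraries alone 2 were called between the genotypes (1.18%). limma called 3 in fl/fl-MI against fl/fl-Sham on either FPKM scale (37.5% and 38.8%); in the average it called 3 on log2(FPKM + 1) (56.1%) and 4 on log2(FPKM + 0.1) (56.7%). Without both second MI libraries the counts were 1 in CKO-MI against fl/fl-MI (6.37%), 3 in fl/fl-MI against fl/fl-Sham (39.4%), 3 in CKO-MI against CKO-Sham (41.3%), 4 in the average (53.6%) and 2 in the interaction (8.03%). Apart from the construction of these fits the cause was not tested. Leaving out a single library leaves 1 library in its group. The share of all genes called also changed with the library left out, rising in some such fits and falling in others. The member counts that follow therefore describe the fits and are no result about clock genes alone. With each library left out in turn the counts ran from 0 to 2 in CKO-MI against fl/fl-MI (2 without the first fl/fl-MI library), 0 to 1 in fl/fl-MI against fl/fl-Sham (Per1 without the first fl/fl-MI library, Arntl without either CKO-MI library), 0 to 7 in CKO-MI against CKO-Sham and 0 to 6 in the average (7 and 6 without the first CKO-MI library) and 0 to 2 in the interaction (2 without the first fl/fl-MI library).

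Directions turned on the FPKM scale, on which the median of all genes in the average of MI against sham was 0.41 on log2(FPKM + 1) and 0.56 on log2(FPKM + 0.1). The cause was not tested. In fl/fl-MI against fl/fl-Sham Cry1 was then at 0.38 and 0.49 and Tef at 0.47 and 0.49, on the larger and the smaller pseudocount. In the average Per3 was at 0.09 on both, Nr1d1 at 0.32 and 0.33, Nr1d2 at 0.15, Dbp at 0.16 and Tef at 0.16 on both, all below the median of all genes. Without both second MI libraries, CKO-MI against fl/fl-MI gave -0.01 for Clock, 0.14 for Per1, 0.41 for Per2 and 0.11 for Tef, CKO-MI against CKO-Sham gave -0.54 for Arntl, and the interaction gave 0.16 for Per2. With single libraries left out, CKO-MI against fl/fl-MI ran from -1.99 to 0.21 for Per2, -0.10 to 0.72 for Cry1 and -0.97 to 0.20 for Tef. CKO-MI against CKO-Sham ran from -0.54 to 1.64 for Arntl and -0.06 to 0.77 for Cry1, and the average from -0.07 to 0.34 for Cry1. Each of these extremes came from leaving out a CKO-MI library.

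RLE normalization, counts divided by 4 and the replicate block changed no call of a member. Deviations of libraries with one replicate number correlated at -0.17 to 0.06 over genes. No strong shared deviation was seen, but such values cannot tell whether samples were paired. With the replicate block 1 member (Nr1d1) was called in CKO-MI against CKO-Sham and 0 in each other comparison, and all genes called in CKO-MI against CKO-Sham were 2677 in place of 3467 and in fl/fl-MI against fl/fl-Sham 1689 in place of 2596. With the numbers of CKO-MI crossed in the block, a pairing tried because of its correlation of -0.17 with fl/fl-MI, these were 3080 and 2116, with the same count of members. With 2 libraries a group, 1 library decides most of the values, and Arntl and Cry1 rest on as few as 118 and 109 read pairs.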

Other observations

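Lists of related genes that hold no member were read in the same comparisons. Of 7 temperature-responsive genes 0 passed edgeR's test in fl/fl-MI against fl/fl-Sham, where 18.5% of all genes did (lowest adjusted p = 0.0526 by edgeR). There were 4 at an unadjusted p under 0.05, against 36.3% of all genes. In CKO-MI against CKO-Sham 3 passed, where 24.7% of all genes did, with the cold-induced RNA-binding genes Cirbp and Rbm3 lower and the heat-shock gene Hsph1 higher after MI. Averaged over genotypes 4 passed, where 40.4% of all genes did. In the interaction 0 passed, with 2 at an unadjusted p under 0.05, against 8.49% of all genes. Cirbp lay at 27.9 and 29.3 CPM in fl/fl-Sham, 43.5 and 40.1 in CKO-Sham, 17.2 and 30.4 in fl/fl-MI, and 20.4 and 15.5 in CKO-MI, so that in CKO it was below both sham libraries after MI. Rbm3 was at 78.2 and 72.4, 117 and 114, 67.8 and 108, and 54.7 and 62.0 in the same order.

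Of 13 clock-controlled output genes of the heart, 4 were higher and 0 lower in fl/fl-MI against fl/fl-Sham, among them Pdk4, which restrains the entry of pyruvate into the citrate cycle. In CKO-MI against CKO-Sham Pdk4 was higher and Tcap was lower. Pdk4 lay at 123 and 125 CPM in fl/fl-Sham, 94.7 and 76.0 in CKO-Sham, 376 and 1200 in fl/fl-MI, and 633 and 202 in CKO-MI. The 202 CPM of the second CKO-MI library were the lowest value after MI and the 1200 CPM of the second fl/fl-MI library the highest. None of the 13 passed between genotypes. Of 10 glucocorticoid-induced genes 4 were higher in fl/fl-MI against fl/fl-Sham, 1 in CKO-MI against CKO-Sham. Of 6 immediate early genes the counts were 5 and 0. The same 18.5% and 24.7% of all genes passed in these comparisons. In the interaction 0 genes of either of these last lists passed by edgeR. There were 2 and 6 at an unadjusted p under 0.05, against 8.49% of all genes.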
